A study of Mus musculus with 20 samples.

Results

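The endoplasmic reticulum (ER) stress genes examined here were Hspa5, Hsp90b1, Pdia4, Creld2, Sdf2l1, Dnajb9, Manf, Xbp1, Atf4 and Ddit3. They were listed by name, as genes whose products belong to the unfolded protein response, with earlier results of these data known; no threshold on a measured value entered the rule. All 10 were present among the 25444 loci of the table, and all 10 passed the filter on low counts, as 13704 loci did.

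RNA-seq was carried out on the livers of C57BL/6N (B6) and C3H/HeN (C3) inbred mice of both sexes, with 5 mice in each of the 4 groups B6 F, B6 M, C3 F and C3 M. Every mouse was 20 weeks old and untreated, came from the same supplier, was housed alone and had its diet changed a few weeks before necropsy. As each sex had its own room, the effect of the room and that of sex cannot be told apart. The left lateral lobe of 1 mouse gave 1 library, necropsies ran over several hours of a morning with the time of each mouse not given in the sources used here, and the 20 libraries were spread over 3 sequencing pools that each held livers of every group.

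Proteins that enter the ER are folded there by chaperones, and the liver, which secretes most plasma proteins, depends on this machinery. When unfolded protein accumulates, the membrane sensors encoded by Ern1, Eif2ak3 and Atf6 start the unfolded protein response: Ern1 splices the Xbp1 mRNA into the form that encodes an active factor, Eif2ak3 slows translation while favouring that of Atf4, and Atf6 is cleaved to release a transcription factor. Their targets include chaperones, degradation factors and, downstream of Atf4, the stress factor Ddit3. Counts per gene, as used here, do not separate the spliced from the unspliced form of Xbp1.

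The libraries held between 27370921 and 46835745 counted read pairs. Hepatocyte markers (Alb, Ttr, Apoa1, Tat, Cps1 and Serpina1a) summed to between 79444 and 173847 TPM (the authors' expression level, scaled to gene length and to the total of the library) in a liver, against at most 461 TPM for the Kupffer cell list, at most 348 TPM for the stellate cell list and at most 289 TPM for the sinusoidal endothelium list. All 6 haemoglobin genes listed were at 0 in every library. Reads that map to several places or overlap several genes were not counted, so these values of 0 do not show that blood was absent. Alas2, on the same red blood cell list, lay between 17.4 and 223 TPM. Each value is from bulk tissue, in which fewer cells of a type and less RNA per cell cannot be told apart.

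Levels are given in TPM, which is scaled by gene length. Hsp90b1 (the ER form of the Hsp90 chaperone, mm9 chr10:86153586-86168189, minus strand) and Hspa5 (BiP, the main ER Hsp70 and a brake on the sensors, mm9 chr2:34627610-34632049, plus strand) were the most abundant, with means of 1063 TPM ± 316 (SD, n = 20) and 1030 TPM ± 432 (SD, n = 20). Hsp90b1 stood above Hspa5 in 12 of 20 livers, so their order was not stable between livers. Pdia4, a protein disulfide isomerase (mm9 chr6:47746140-47763511, minus strand), followed at 372 TPM ± 86.6 (SD, n = 20), below Hspa5 in 20 of 20 livers. The annotated span of Pdia4 holds the microRNA gene Mir704 on the same strand.

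Xbp1 (mm9 chr11:5420644-5425996, plus strand) averaged 170 TPM, Dnajb9 143 TPM, Atf4 123 TPM and Manf 122 TPM, each over the 20 livers. Dnajb9, an ER co-chaperone of the Hsp40 type that acts with Hspa5, lies at mm9 chr12:45306884-45311055 on the minus strand. Atf4, the transcription factor of the Eif2ak3 branch, lies at mm9 chr15:80085614-80087975 on the plus strand, and Manf, an ER-resident protein that is also secreted, at mm9 chr9:106789746-106794269 on the minus strand. Neighbours in this stretch changed places from liver to liver, with Xbp1 above Dnajb9 in 13 of 20 livers, Dnajb9 above Atf4 in 8 and Atf4 above Manf in 10.

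Creld2, an ER protein with disulfide isomerase activity (mm9 chr15:88650076-88657111, plus strand), averaged 97.8 TPM. Sdf2l1, a component of ER chaperone complexes (mm9 chr16:17130231-17132476, minus strand), averaged 49.7 TPM. Ddit3 (CHOP, mm9 chr10:126727849-126733344, plus strand) was the least abundant at 14.3 TPM, below Sdf2l1 in 20 of 20 livers. Ddit3 overlaps Mars on the other strand, and the counting used strand.

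Levels ranged widely between livers for some genes and little for others. Across the 20 livers of the 4 groups the highest value was 15.8 times the lowest for Creld2, 10.4 times for Dnajb9, 7.50 times for Manf, 6.45 times for Sdf2l1, 6.22 times for Ddit3 and 5.10 times for Hspa5. The same ratio was 2.91 for Hsp90b1, 2.26 for Xbp1, 2.16 for Pdia4 and 1.71 for Atf4. Atf4, Pdia4 and Xbp1 thus had the narrowest ranges of mRNA level. Within single groups the ratio ran from 2.51 in C3 M to 10.2 in B6 F for Creld2, from 1.64 in C3 M to 4.13 in B6 F for Hspa5, and from 1.21 in C3 F to 1.47 in B6 F for Atf4.

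**Figure D1:**
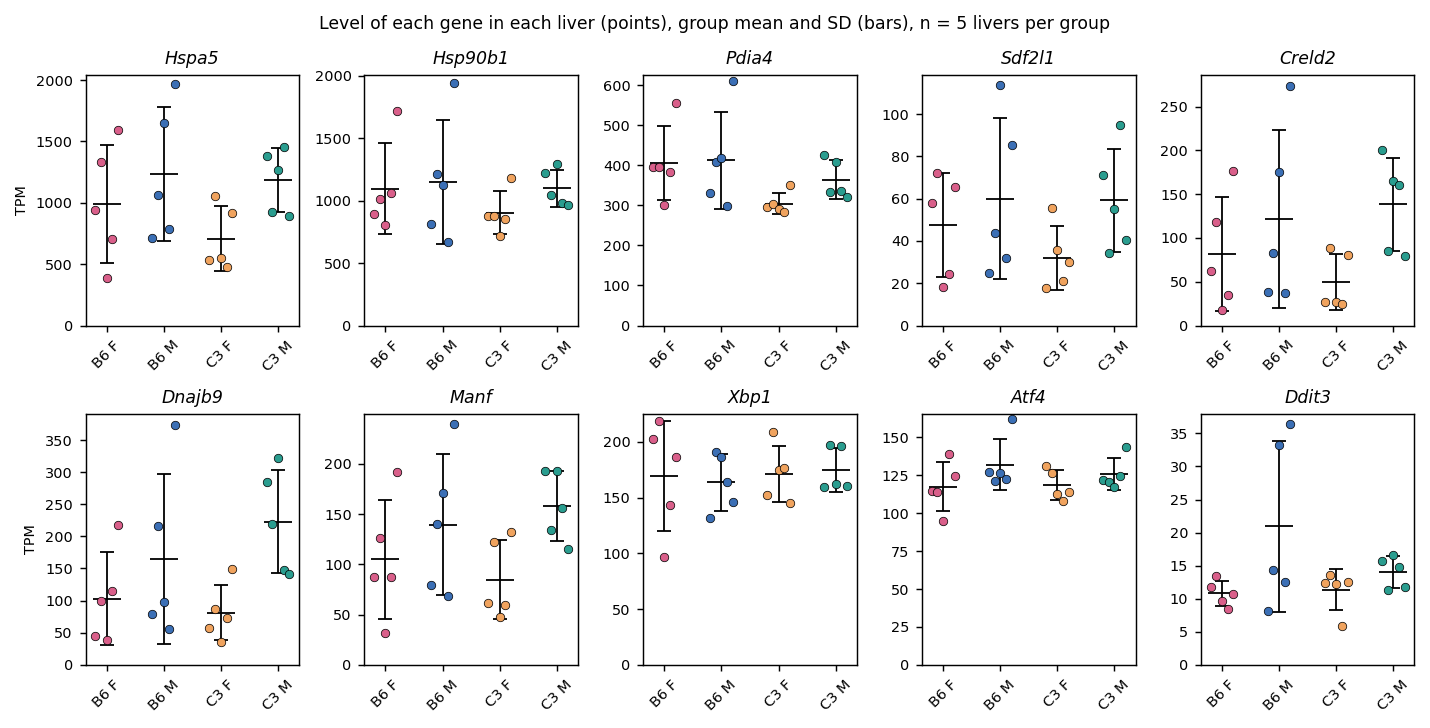
TPM (vertical axis, starting at 0, a separate scale for each gene) in each of the 20 livers by group. Points are livers in order of replicate number, the wide bar is the group mean and the whiskers are 1 SD (n = 5). Creld2 runs from 17.3 to 274 TPM and Atf4 only from 94.6 to 162 TPM, and the groups overlap for every gene.

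Hspa5 showed the pattern that most of the chaperones shared. In B6 F its 5 livers (replicates 1 to 5) held 943, 1331, 386, 705 and 1593 TPM, and in B6 M they held 717, 1066, 1647, 789 and 1966 TPM. In C3 F they held 532, 1059, 546, 477 and 921 TPM, and in C3 M 1383, 928, 1267, 1456 and 889 TPM. Within B6 each sex had both low and high livers, whereas 3 of the 5 C3 F livers lay at or below 546 TPM and no C3 M liver fell below 889 TPM.

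Creld2 varied with Hspa5 over a wider range, although the 2 genes did not rank the livers alike within B6 M, C3 F and C3 M. Its B6 F livers held 62.6, 119, 17.3, 34.6 and 176 TPM and its B6 M livers 38.3, 82.9, 175, 37.4 and 274 TPM. Its C3 F livers held 26.7, 88.4, 26.4, 24.9 and 80.2 TPM, and its C3 M livers 201, 84.9, 166, 161 and 79.9 TPM. The lowest liver of the series for both genes was B6 F replicate 3 and the highest was B6 M replicate 5.

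Manf held 87.1, 126, 31.9, 87.4 and 192 TPM in B6 F and 79.7, 140, 171, 68.2 and 239 TPM in B6 M. In C3 F it held 61.8, 122, 47.8, 59.4 and 132 TPM, and in C3 M 193, 134, 193, 156 and 115 TPM. The same B6 F and B6 M livers were again the lowest and the highest.

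Whether the genes rose and fell together between livers of 1 group was tested with the level of Hspa5 as a covariate beside group and pool. Of the other 9 genes, 7 rose with Hspa5 and none fell (edgeR quasi-likelihood test, adjusted p under 0.05 over 13703 genes), where 6.00% of all genes tested rose with it. The slope, which is the log2 change of a gene for each doubling of Hspa5, was 1.88 ± 0.06 (SE) for Creld2, 1.17 ± 0.05 for Manf, 1.10 ± 0.09 for Dnajb9 and 1.10 ± 0.10 for Sdf2l1. It was 0.56 ± 0.06 for Hsp90b1 and 0.42 ± 0.05 for Pdia4. Each of these 6 kept an adjusted p under 0.05 in 20 of 20 fits that left out 1 liver.

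Ddit3 also rose with Hspa5, with a slope of 0.73 ± 0.18 (SE, edgeR adjusted p = 0.0192), but no longer passed without B6 M replicate 4 or without B6 M replicate 5. The slopes of Xbp1 (0.13 ± 0.09, edgeR adjusted p = 0.428) and Atf4 (0.14 ± 0.07, edgeR adjusted p = 0.268) did not pass the test. Over the 20 livers, after removal of group and pool, Pearson's r with Hspa5 was 0.99 for Creld2 and Manf, 0.95 for Dnajb9, 0.94 for Hsp90b1, 0.93 for Sdf2l1 and 0.90 for Pdia4. Spearman's rho lay between 0.92 and 0.98 for these 6, and each two-sided permutation p was 1e-05, the smallest that 100000 resamples can give (1.5e-05 after Benjamini-Hochberg adjustment over the 9 genes). Without the 2 livers farthest from the median of Hspa5, B6 F replicate 5 and B6 M replicate 5, r was still between 0.88 and 0.99 for these 6.

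For Ddit3, r was 0.68 (permutation p = 0.0011, adjusted 0.0014), rho was 0.65 (permutation p = 0.0027, adjusted 0.0035) and r without the 2 livers was 0.65. For Atf4, r was 0.46 (permutation p = 0.043, adjusted 0.048), rho was 0.59 (permutation p = 0.0068, adjusted 0.0076) and r without the 2 livers was 0.35, so the relation of Atf4 with Hspa5 weakened without those livers and did not pass in edgeR. For Xbp1, r was 0.36 (permutation p = 0.12, adjusted 0.12), rho was 0.37 (permutation p = 0.11, adjusted 0.11) and r without the 2 livers was 0.41. The permutations shuffled residuals as if they were 20 independent values, although group and pool had been removed. All permutation p-values given here and above are therefore too small. That of Atf4 should not be read as passing, since the edgeR test counts those terms. As a description over the same 20 livers, which share libraries and scaling, r lay between 0.83 and 0.99 in the 21 pairs among Hspa5, Hsp90b1, Pdia4, Sdf2l1, Creld2, Dnajb9 and Manf, and between -0.09 and 0.42 in the 9 pairs with Xbp1.

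**Figure D2:**
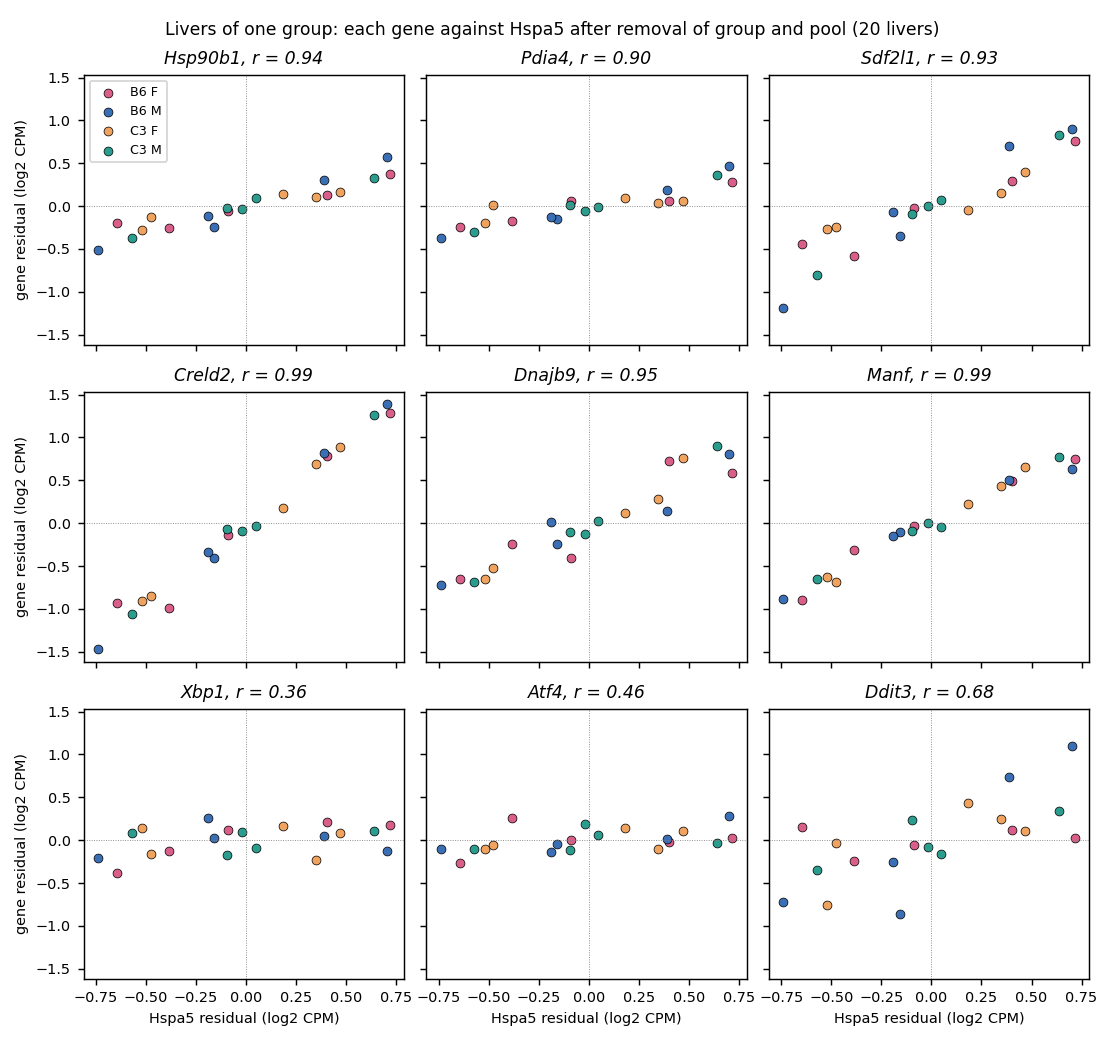
Residual log2 CPM (counts scaled to the total of the library) of each gene (vertical axis) against that of Hspa5 (horizontal axis) after removal of group and pool. Each point is 1 of 20 livers, coloured by group. Creld2 and Manf (r = 0.99) lie close to a line in which livers of all 4 groups mix, while Xbp1 (r = 0.36) and Atf4 (r = 0.46) stay nearly flat.

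Among all genes tested, the 10 whose residuals were most like those of Hspa5 over the 20 livers were Creld2, Manf, Hyou1, Dnajb11, Tmed3, Atp2a2, Ube2g2, Rint1, Gmppb and Trabd, with r from 0.99 down to 0.96. Hyou1 is an ER chaperone of the Hsp110 type and Dnajb11 an ER Hsp40. Atp2a2 encodes the calcium pump of the ER membrane, and Ube2g2 a ubiquitin-conjugating enzyme of ER-associated degradation. The remaining ER stress genes stood further down the same ranking, at 22 for Dnajb9, 29 for Hsp90b1, 48 for Sdf2l1, 92 for Pdia4, 868 for Ddit3, 2054 for Atf4 and 2775 for Xbp1.

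Of a list of 55 other genes of the response, 53 were tested, and 25 of these rose with Hspa5 while none fell (edgeR, adjusted p under 0.05). By role, 9 of 18 ER folding genes rose, 10 of 14 genes of ER-associated degradation and translocation, 3 of 6 sensor genes and 3 of 15 genes of the Atf4 and Ddit3 axis. The median slope of the list was 0.14, against -0.01 over all genes tested. The largest slopes were those of Derl3, which acts in degradation of ER proteins (2.74 ± 0.34, SE), Syvn1, the ubiquitin ligase Hrd1 (1.35 ± 0.10), Asns, asparagine synthetase (1.18 ± 0.24), and Hyou1 (0.89 ± 0.05).

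Among the sensors, Eif2ak3 (0.53 ± 0.09, SE) and Atf6b (0.34 ± 0.06) rose with Hspa5. Ero1lb, an ER oxidase, had a slope of 0.70 ± 0.06 and Dnajb11 one of 0.59 ± 0.04. In the Atf4 and Ddit3 axis only Asns, Eif2s1 and Ppp1r15b of 15 passed, and Trib3 (-0.26) and Chac1 (-0.41) had slopes that did not.

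Chaperones outside the ER moved with Hspa5 too, since 8 of 13 listed rose with it and none fell (edgeR, adjusted p under 0.05). The heat shock proteins Hsph1 (1.21 ± 0.11, SE), Hspa8 (0.72 ± 0.10), Bag3 (0.86 ± 0.14) and Hsp90aa1 (0.66 ± 0.10) were among them, whereas the mitochondrial chaperones Hspd1, Hspe1 and Hspa9 had slopes of 0.06, 0.04 and 0.00 that did not pass. Of 12 clock genes 1 rose, Per2, with a slope of 0.66 ± 0.18 (edgeR adjusted p = 0.0296). Of 37 cell type markers tested, 1 rose, the hepatocyte gene Tat. The time of necropsy and its part in the result were not tested, as no time per liver was given.

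**Figure D3:**
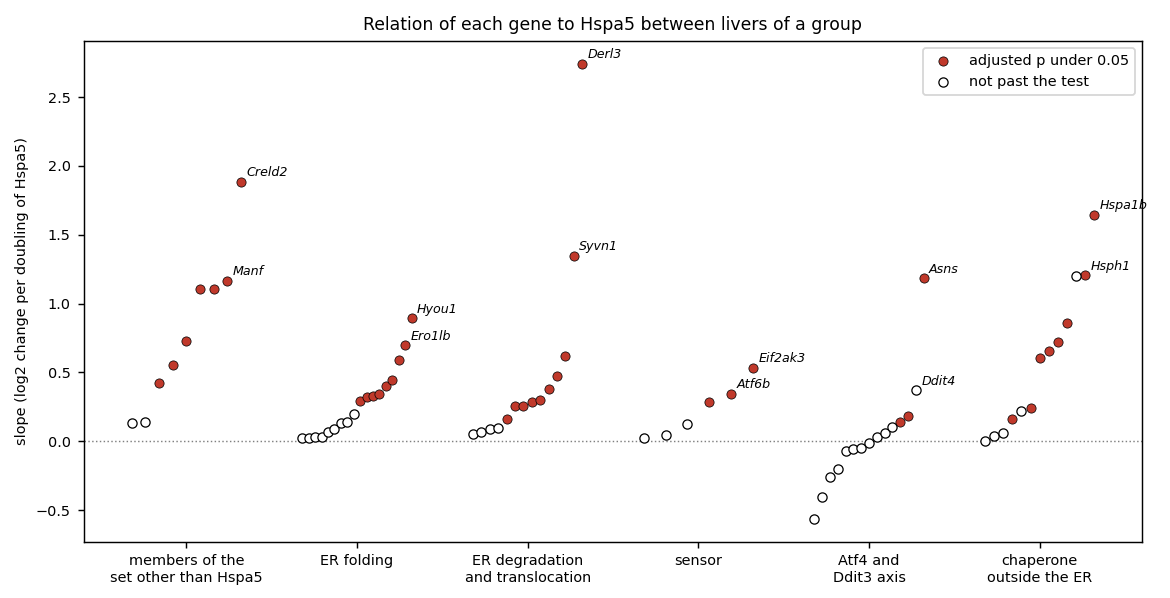
Slope on Hspa5 (vertical axis, log2 change for each doubling of Hspa5) of each gene, 1 point for each gene, sorted within its role (horizontal axis). Filled points passed the edgeR test at an adjusted p under 0.05. Derl3 at 2.74 and Creld2 at 1.88 have the largest slopes, and most points of the Atf4 and Ddit3 axis are open and near 0.

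Because these genes moved together, their promoters were searched for the ER stress response element (ERSE), the letters CCAAT, any 9 bases, then CCACG, on both strands of the RefSeq window from 250 bases before to 50 after the start (build GRCm38.p6). Of the 10 genes, 9 matched an entry. The ERSE was found in 39 of 32851 promoters (0.119%), and 3 of the 9 genes held it: Hspa5, Hsp90b1 at 2 places, and Creld2. The matches are shown with up to 30 bases on either side, 5′ to 3′ on the strand of the gene, with the ends of the element in capitals:
Hspa5, chr2:34771995-34772073, plus strand, element from 65 to 47 bases before the start: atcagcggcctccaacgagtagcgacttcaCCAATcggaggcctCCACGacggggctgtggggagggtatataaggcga
Hsp90b1, chr10:86705608-86705686, minus strand, element from 212 to 194 bases before the start: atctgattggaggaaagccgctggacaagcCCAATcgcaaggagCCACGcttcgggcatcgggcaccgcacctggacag
Hsp90b1, chr10:86705503-86705581, minus strand, element from 107 to 89 bases before the start, on the opposite strand: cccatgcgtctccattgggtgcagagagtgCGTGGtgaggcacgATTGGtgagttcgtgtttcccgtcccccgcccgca
Creld2, chr15:88819490-88819568, plus strand, element from 126 to 108 bases before the start, on the opposite strand: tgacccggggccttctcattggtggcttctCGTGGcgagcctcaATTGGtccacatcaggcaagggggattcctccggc

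Among genes tested, 8 of the 671 that rose with Hspa5 and had a promoter entry held an ERSE (1.19%), against 0 of 243 that fell and 10 of 9931 that did neither (0.101%). The 8 were Derl3, Creld2, Syvn1, Ero1lb, Alg12, Hsp90b1, Dnajc3 and Pdia6. The 10 that did neither included 2 ER folding genes of the response list. These were Calr (slope 0.20, edgeR adjusted p = 0.0577) and Canx (slope 0.07, edgeR adjusted p = 0.404). Alg12, a mannosyltransferase of the ER, is transcribed away from Creld2 with 328 bases between the starts, and the 2 windows share 173 bases that include the same element. Hspa5 itself is not in these counts, being the covariate.

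The related ERSE-II (ATTGG, any 1 base, CCACG, in 0.0365% of promoters) and the letters TGACGTGG (0.676%), TGATGCAA (0.895%) and TGATGNAAT (0.965%) were in none of the 9 windows. GACGTG was in those of Hspa5 and Ddit3 and in 6.38% of all promoters. CCAAT, which is also an end of the ERSE, was in 8 of the 9 windows and in 37.4% of all promoters, and CCACG, its other end, was in 32.8% of all promoters. The window of Xbp1 held none of these motifs. A match describes letters in a window and not a bound site.

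The groups were then compared, F against M within each strain and C3 against B6 within each sex. Calls needed an adjusted p under 0.001 together with a log2 fold change past 0.5 in either direction. By edgeR 0 of the 10 ER stress genes were called in any comparison, where 6.34% of all genes tested were called between sexes in B6, 6.90% between sexes in C3, 9.40% between strains in F, 9.64% between strains in M and 0.401% in the sex-by-strain interaction. At an unadjusted p under 0.05 there were 2, 7, 1, 1 and 0 of them in the same order. The share of all genes at that threshold is not given here. Even at an adjusted p under 0.05 by edgeR the share was 34.6%, 40.0%, 32.9%, 34.5% and 2.96%. DESeq2 called only Dnajb9, in C3. Comparisons that involve the same group share its livers.

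At an adjusted p under 0.05 without a minimum fold change, 6 of 10 were lower in C3 F than in C3 M and none was higher, where 19.9% of all genes tested were lower in C3 F and 40.0% differed in either direction. These were Hspa5, Pdia4, Sdf2l1, Creld2, Dnajb9 and Manf. In B6, 2 of 10 were lower in F, Atf4 and Ddit3, and none was higher, where 18.4% of all genes were lower in F and 34.6% differed in either direction. The median log2 difference of the 10 between F and M was -0.77 in C3 and -0.49 in B6, against 0.01 and 0.00 over all genes tested.

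Dnajb9 had the smallest p of the 10 in C3. Its C3 F livers held 57.9, 87.7, 35.9, 73.7 and 149 TPM and its C3 M livers 285, 219, 322, 147 and 142 TPM. The groups overlapped only through C3 F replicate 5, which stood above C3 M replicates 4 and 5. The log2 fold change of F against M was -1.64 ± 0.37 (SE, 95% interval -2.42 to -0.87, edgeR adjusted p = 0.0023), a 3.13-fold lower level in F. Within the pools the log2 difference was -1.38, -1.996 and -1.41.

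Creld2 fell by 1.95 on the log2 scale in C3 F (SE 0.61, 95% interval -3.23 to -0.67, edgeR adjusted p = 0.0170), or 3.87-fold, with -1.36, -2.51 and -1.65 within the 3 pools. Sdf2l1 held 17.6, 55.7, 35.6, 21.2 and 29.96 TPM in C3 F and 71.3, 34.3, 55.1, 94.8 and 40.6 TPM in C3 M. Its log2 fold change was -1.32 ± 0.37 (SE, edgeR adjusted p = 0.0093), with -0.90, -1.78 and -1.21 within the pools. The C3 groups of both genes overlapped.

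Manf was 2.27-fold lower in C3 F, with a log2 fold change of -1.18 ± 0.37 (SE, edgeR adjusted p = 0.0164) and -0.88, -1.43 and -1.03 within the pools. Hspa5 was 2.05-fold lower, with -1.04 ± 0.31 (SE, edgeR adjusted p = 0.0142) and -0.75, -1.21 and -1.02 within the pools. Of the 6 that passed, Pdia4 differed by the least, with -0.39 ± 0.15 (SE, edgeR adjusted p = 0.0449) and -0.31, -0.45 and -0.33 within the pools. In C3 the level was lower in F in each of the 3 pools for 10 of 10 genes. In B6 this held for 7 of 10 (Pdia4, Xbp1 and Ddit3 were higher in F in 1 pool each). Pool 2 held 1 C3 F liver and pool 3 held 1 C3 M liver, so the C3 differences in these pools rest on a single liver on 1 side. Many of the 10 genes were correlated and do not count as independent. None of the 10 had groups that did not overlap. The share of all genes for either count is not given here.

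The 4 genes that did not pass in C3 had log2 differences of -0.41 (Hsp90b1, 95% interval -0.80 to -0.02), -0.25 (Xbp1, -0.49 to 0.003), -0.19 (Atf4, -0.39 to 0.02) and -0.51 (Ddit3, -1.19 to 0.17). The count of 6 in C3 fell to 1, Dnajb9, when the pool was not a term of the fit, with a log2 difference for Hspa5 of -0.87 (edgeR adjusted p = 0.0777) against -1.04 with it. Pdia4 passed in only 6 of 20 fits that left out 1 liver, while the other 5 passed in 20 of 20.

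In B6 the largest difference between the sexes was that of Ddit3. Its B6 F livers held 11.8, 13.4, 9.65, 8.44 and 10.7 TPM and its B6 M livers 8.17, 14.3, 33.2, 12.6 and 36.4 TPM. B6 M replicates 3 and 5 stood far above the other 3 B6 M livers, which lay in or near the range of B6 F. The log2 fold change of F against M was -1.07 ± 0.32 (SE, 95% interval -1.73 to -0.41, edgeR adjusted p = 0.0142), with -1.54 and -1.01 in pools 1 and 3 but 0.16 in pool 2, which held 1 liver of each B6 group. Without B6 M replicate 3 it was -0.83 (edgeR adjusted p = 0.0648) and without B6 M replicate 5 it was -0.71 (edgeR adjusted p = 0.0639), so passing at an adjusted p under 0.05 rested on these livers.

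Atf4 held 115, 114, 94.6, 139 and 124 TPM in B6 F and 127, 121, 127, 123 and 162 TPM in B6 M. Only B6 F replicates 4 and 5 lay within the range of B6 M. Its log2 fold change was -0.29 ± 0.10 (SE, 95% interval -0.49 to -0.09, edgeR adjusted p = 0.0264), with -0.23, -0.50 and -0.25 within the pools. It no longer passed without B6 F replicate 2 (-0.28, edgeR adjusted p = 0.0513), B6 F replicate 3 (-0.22, adjusted p = 0.0692), B6 M replicate 3 (-0.29, adjusted p = 0.0503) or B6 M replicate 5 (-0.20, adjusted p = 0.105). Neither Atf4 nor Ddit3 passed in B6 when limma was run on log2(TPM + 1).

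The 8 other genes did not pass in B6, and their log2 differences between F and M ran from -0.73 for Creld2 (95% interval -1.91 to 0.45) to -0.10 for Xbp1 (-0.35 to 0.14). That of Hspa5 was -0.48 (95% interval -1.12 to 0.15) and that of Dnajb9 was -0.71 (-1.45 to 0.03). Whether the sex difference itself differed between strains was tested by the interaction. None of the 10 passed at an adjusted p under 0.05 in edgeR or DESeq2, where 2.96% of all genes did in edgeR. For Hspa5 the difference of differences was -0.55 (95% interval -1.45 to 0.35), and for Dnajb9 it was -0.94 (-1.99 to 0.12), so the larger values in C3 were not shown to differ from those in B6.

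**Figure D4:**
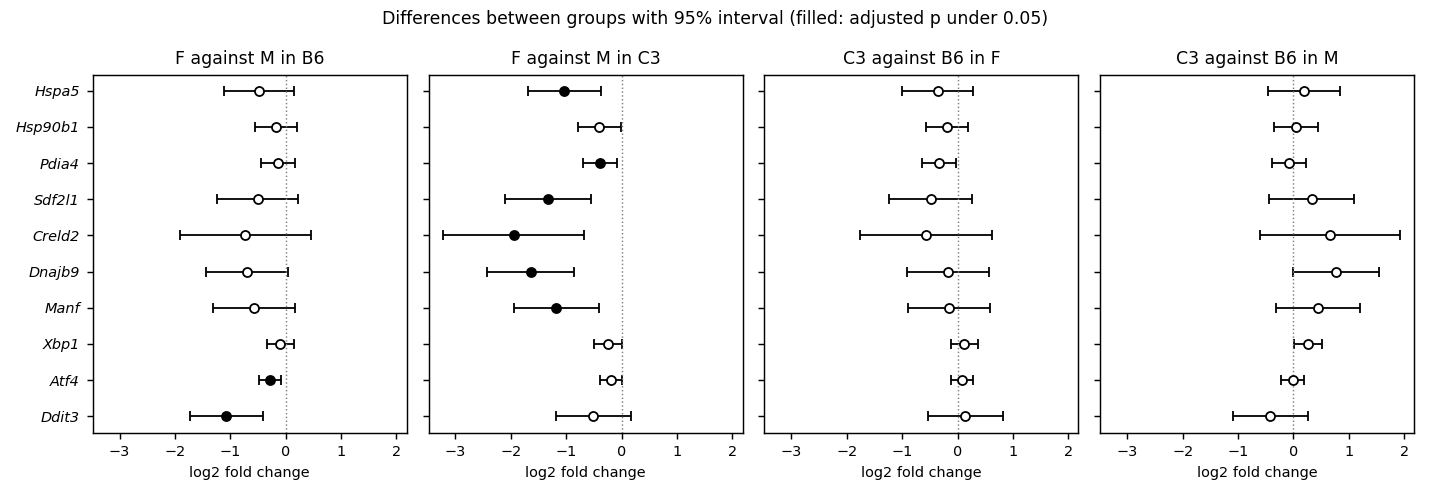
Log2 fold change (horizontal axis) of each gene in 4 comparisons, with its 95% interval from edgeR. Filled points passed at an adjusted p under 0.05. Between the sexes all points lie left of 0 (Xbp1 in B6 was 0.0066 with limma on log2(TPM + 1)), 6 are filled in C3 and 2 in B6, and none is filled between the strains.

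With the level of Hspa5 added to the fit, 0 of the other 9 genes passed in B6 in edgeR and only Dnajb9 passed in C3, with a log2 difference of -0.49 ± 0.15 (SE, edgeR adjusted p = 0.0306) in place of -1.64. In B6, 3 had an unadjusted p under 0.05, of which Creld2 was higher in F (0.22) and Atf4 (-0.22) and Ddit3 (-0.60) were lower. Creld2 stood at 0.01 ± 0.10 and Manf at 0.00 ± 0.08 in C3 in the same fit. Hspa5 itself was lower in C3 F, and its r with Creld2 and Manf was 0.99 between livers of a group. Smaller differences in this fit thus follow from the choice of covariate. The share of all genes passing in it, at either threshold, is not given here. This fit was added after the data were seen, and the part of Hspa5 in the sex differences was not tested.

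Between the strains none of the 10 passed at an adjusted p under 0.05 in edgeR or DESeq2, where 32.9% of all genes did in F and 34.5% in M by edgeR. In F the log2 differences of C3 against B6 ran from -0.57 (Creld2, 95% interval -1.76 to 0.63) to 0.14 (Ddit3, -0.53 to 0.82). In M they ran from -0.42 (Ddit3, -1.09 to 0.26) to 0.77 (Dnajb9, -0.002 to 1.54). The lowest unadjusted p was that of Pdia4 in F (-0.33, edgeR adjusted p = 0.0891) and that of Xbp1 in M (0.27, edgeR adjusted p = 0.0912). Pdia4 passed in F without B6 M replicate 5, Xbp1 passed in M without B6 M replicate 2 and Dnajb9 passed in M without B6 M replicate 5.

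Among the 53 other genes of the response, 28 were lower and 3 higher in C3 F at an adjusted p under 0.05 (edgeR), and 11 were lower and 2 higher in B6 F. Over all genes tested 19.9% were lower in C3 F and 18.4% in B6 F, so the count in B6 was near the share over all genes. By role, 11 of 18 ER folding genes, 11 of 14 degradation and translocation genes, 4 of 6 sensor genes and 2 of 15 genes of the Atf4 and Ddit3 axis were lower in C3 F. In B6 F these were 4, 5, 0 and 2.

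Under the stricter rule, 1 of the 53 was called higher and 1 lower in B6 F, and 1 higher and 2 lower in C3 F. That was no larger a share than the 6.34% and 6.90% of all genes called in either direction. Of those called, Asns was lower in F in both strains, by -4.38 ± 0.46 (SE, log2, edgeR adjusted p = 1.0e-06) in B6 and -3.44 ± 0.48 (edgeR adjusted p = 3.1e-05) in C3. Vldlr, a lipoprotein receptor, was higher in F, by 2.41 ± 0.41 in B6 and 3.07 ± 0.51 in C3. Ppib, an ER prolyl isomerase, was lower in C3 F by -0.56 ± 0.11 (SE, log2). Among genes with the smallest p of their role, Eif2ak3 had -0.92 and Dnajc1 -0.42 in C3, Dnajc1 had -0.29 in B6, and Ufd1l had -0.30 in B6 and -0.35 in C3, all with an edgeR adjusted p under 0.05. For Atf6b in B6 the value was -0.25 (edgeR adjusted p = 0.127).

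Between the strains 3 of the 53 were called in F and 5 in M, no larger a share than the 9.40% and 9.64% of all genes. Fgf21, a hepatokine and Atf4 target, was higher in C3 by 4.32 ± 0.45 (SE, log2) in F and 3.34 ± 0.42 in M. Dnajc10, an ER disulfide reductase, was higher by 0.76 in each sex, and Atf5 by 0.71 in F and 0.57 in M. In M, Ppib was higher by 0.64 and P4hb, a disulfide isomerase, was lower with -0.57. At an adjusted p under 0.05 the list had 8 higher and 7 lower in C3 F, and 13 higher and 5 lower in C3 M, among them Mbtps1 (0.21 in F, 0.19 in M) and Vcp (-0.19 in F, -0.18 in M), where 32.9% and 34.5% of all genes differed in either direction. In the interaction none of the 53 passed at an adjusted p under 0.05 in edgeR. An unadjusted p under 0.05 was seen for 6, and the share of all genes at that threshold is not given here. The smallest p of each role belonged to Eif2ak3 (-0.64), Ppib (-0.28), Derl3 (-2.94) and Trib3 (-1.19).

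The chaperones outside the ER differed between the C3 sexes as well. All 13 listed were lower in C3 F at an adjusted p under 0.05 (edgeR) and 5 were lower in B6 F. Over all genes tested 19.9% were lower in C3 F and 18.4% in B6 F. The heat shock proteins Hspa1b and Hspa1a were called in C3, with log2 differences of -5.31 ± 0.71 and -4.86 ± 0.73 (SE), as were Hsp90aa1 (-1.38 ± 0.24) and Hsp90ab1 (-0.58 ± 0.12). The smallest p of this list in B6 was that of Hspa1a (-2.32, edgeR adjusted p = 0.0086). Hspa1b averaged 1.63 TPM ± 1.16 (SD, n = 5) in C3 F and 47.9 TPM ± 21.3 (SD, n = 5) in C3 M. Hspa1a and Hspa1b are near-identical copies, and reads that map to both were not counted, so their values are uncertain. Between strains Hspb1 was lower in C3 F than in B6 F (-1.41 ± 0.23, SE, edgeR adjusted p = 0.0001) and in C3 M than in B6 M (-0.72, edgeR adjusted p = 0.0197). In the interaction Hspa1b passed at an adjusted p of 0.0422 in edgeR (-3.45).

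Clock genes and cell type markers moved with some of the same comparisons. Nr1d2 was higher in B6 F by 0.82 and Bhlhe41 lower in C3 F with -2.40 (both called by edgeR), and Clock had -0.39 in B6 and -0.42 in C3. Between strains Bhlhe41 was lower in C3 F than in B6 F (-1.71, edgeR adjusted p = 0.0077). Nr1d2 was higher in C3 M than in B6 M (0.71, edgeR adjusted p = 0.0019). In the interaction Bhlhe41 had -3.50 (edgeR adjusted p = 0.0034), but it reached at most 0.72 TPM in any liver. At an adjusted p under 0.05 (edgeR), 4 clock genes were higher and 2 lower in B6 F, and 0 were higher and 4 lower in C3 F, of 12. Over all genes tested, 34.6% in B6 and 40.0% in C3 differed in either direction, shares that stand beside the marker counts below too. Between strains 0 clock genes were higher and 1 lower in C3 F, and 5 were higher and 0 lower in C3 M. Of all genes, 32.9% and 34.5% differed there. In the interaction 1 of the 12 passed, where 2.96% of all genes did. The Kupffer cell list summed to between 228 and 346 TPM in C3 F and between 139 and 211 TPM in C3 M, with 5 of 5 markers tested higher in F, and to between 330 and 461 TPM in B6 F and between 197 and 315 TPM in B6 M. At an adjusted p under 0.05 (edgeR), 4 of 5 Kupffer cell markers were higher in B6 F, as were 4 of 5 of sinusoidal endothelium in each strain, 3 of 5 of stellate cells in B6 and 2 of 5 in C3, and 0 of 5 of B and plasma cells in B6 and 4 of 5 in C3. Hepatocyte markers summed to between 145237 and 173847 TPM in C3 F and between 108467 and 135270 TPM in C3 M, but of the 6 only Alb was higher in C3 F (log2 difference 0.46), while Ttr, Apoa1, Tat and Serpina1a were lower and Cps1, at -0.24, did not pass. Among single markers, the Kupffer cell gene Vsig4 was called higher in F in both strains, and Sox9, Cd4 and the red blood cell gene Alas2 were called lower, with Alas2 at -2.76 in B6 and -3.28 in C3. Of T and NK cell markers 1 was higher and 1 lower in B6 F, and 2 were higher and 1 lower in C3 F, and 2 of 5 cholangiocyte markers were higher in C3 F. The part of these lists in the sex differences was not tested.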

How the data were processed

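Total RNA from 20 livers was sequenced as stranded, ribosomal RNA-depleted paired-end libraries. Per the labels and the study's methods, the authors trimmed reads with cutadapt 1.9.1, aligned them to mm9 with STAR 2.5.1b and counted read pairs per RefSeq gene with featureCounts (Subread 1.5.0-p1) by strand, leaving out reads that map to several places or overlap several genes. The deposited raw counts were used for all tests, and the deposited TPM, scaled by the authors to gene length, for levels; 0 columns were left out.

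Genes with low counts were removed by filterByExpr, counts were scaled by TMM, and all 20 livers were fitted as pool plus group with edgeR 4.0.16 in R 4.3.3 (quasi-likelihood test, Benjamini-Hochberg over all genes tested). CPM residuals used a prior count of 2. Alternatives used DESeq2 1.42.0 and limma 3.58.1 on log2(TPM + 1), which understates changes of low genes. Permutation tests used scipy 1.17.1. On simulated counts for C3 with 200 of 13704 genes changed by a log2 of 1, 153 were recovered with 0 false calls under the stricter rule and 177 with 9 at an adjusted p under 0.05. These counts were drawn for each gene independently and without an effect of pool, so the rates need not hold for the correlated genes examined here.

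The 10 genes and all lists were chosen with earlier results of these data known. The text names all 10, every gene called on the lists of other response genes, chaperones outside the ER and clock genes, the gene with the smallest p of each role of these lists in each comparison and the 10 genes most like Hspa5; other list genes and the cell type markers were named after their values were seen. Replicates were separate mice. Counts of replicates of 1 group differed beyond sampling noise in all 40 pairs (chi-square per degree of freedom 20.0 to 187). Promoter sequences are RefSeq's (GRCm38.p6), and gene coordinates are those of the deposited table (mm9). Protein sequences were not used here.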

Additional observations from a re-analysis of the deposited data

Results flagged for a closer look

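In 40 groups of 5 livers (10 genes in 4 groups), 3 had a liver whose gap to its nearest neighbour, as a share of the whole range, was above Dixon's critical value of 0.71; chance flags about 1 in 20 groups. Atf4 stood at 162 TPM in B6 M replicate 5, above the other 4 livers at 121 to 127 TPM. Hsp90b1 stood at 1719 TPM in B6 F replicate 5, above the other 4 at 806 to 1059 TPM. Ddit3 stood at 5.85 TPM in C3 F replicate 4, below the other 4 at 12.2 to 13.6 TPM. No difference between the strains in the effect of sex passed the interaction test for any of the 10 genes.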

How the results depend on the processing

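Under the stricter rule (adjusted p under 0.001, log2 fold change past 0.5), the count of ER stress genes called stayed at 0 in B6, between strains and in the interaction under each alternative scaling, filter, test and pool setting run. In C3 it was 1 (Dnajb9) with DESeq2, 1 with the replicate number as a block, and from 0 to 1 over fits that left out 1 liver (1 without C3 F replicate 2). Without a minimum fold change, an adjusted p under 0.05 gave 2 in B6 and 6 in C3, and 13, 31, 15 and 18 of the 53 other response genes in the sex comparisons of B6 and C3 and the strain comparisons of F and M. With Hspa5 as a covariate, 0 of the other 9 ER stress genes in B6 and 1 in C3 had an adjusted p under 0.05. The number of those 53 called, 2, 3, 3 and 5 in the same order, was 8 in C3 with DESeq2, 5 between strains in F with limma on log2(TPM + 0.1), 3 between strains in M with only the groups compared, and 1, 1 and 2 in B6, C3 and strains in M without the pool term. Over fits that left out 1 liver it ran from 1 to 3, 1 to 4, 3 to 4 and 3 to 5. The cause was not tested.

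At an adjusted p under 0.05, leaving out 1 liver gave 0 to 2 of the 10 in B6, 5 to 7 in C3, 0 to 1 in each strain comparison, 0 in the interaction and 6 to 7 of 9 rising with Hspa5. Upper-quartile scaling, which moved the median gene by 0.07 in B6 and 0.06 in C3, gave 1 and 5, limma on TPM 0 and 5, and only the groups compared 1 and 8.

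Replicate numbers were not treated as pairs in the main fit. The mean correlation of same-numbered livers was -0.19 and -0.24 between sexes and 0.22 and 0.18 between strains, where single pairs reached 0.56 in F and 0.63 in M. With pool removed, the means were 0.10 and -0.01 between sexes and 0.06 and 0.01 between strains. With the replicate block, 2 in B6 and 7 in C3 passed at 0.05, 6 rose with Hspa5, and 6 of the 53 were called in C3.

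Signs turned for values near 0. Between sexes in B6, Xbp1 was 0.0066 and 0.0063 with limma on log2(TPM + 1) and log2(TPM + 0.1), and leaving out 1 liver Hsp90b1 ran from -0.30 to 0.0047 and Pdia4 from -0.24 to 0.0045, both highest without B6 M replicate 5. Between strains in M, Hsp90b1 was -0.0041 without the pool term, and leaving out 1 liver it ran from -0.066 to 0.22, Atf4 from -0.062 to 0.071 and Pdia4 from -0.18 to 0.059. In F, Dnajb9 ran from -0.44 to 0.074 and Manf from -0.38 to 0.089.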
